A study of Mus musculus with 24 samples.

Results

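The transcripts of 10 regulators of eosinophil development were followed through 24 RNA-seq libraries of cultured mouse eosinophils. They are Gata1, Gata2 and Zfpm1, Cebpa and Cebpe, Spi1, Xbp1, Trib1, Id1 and Id2. They were chosen by name from a list of lineage factors, with earlier results of these data known. All 10 were found among the 25746 genes of the deposited count tables through their Ensembl identifiers, and all 10 passed the filter on low counts that kept 11885 genes for testing. The eosinophils were grown from bone marrow of C57BL/6 mice in stem cell factor and FLT3 ligand (100 ng/ml each) until day 4 and in interleukin-5 (IL-5, 10 ng/ml) afterwards. Live cells were selected on day 13 and left overnight in IL-5, either alone or together with 20 ng/ml GM-CSF (granulocyte-macrophage colony-stimulating factor). The 8 groups of 3 libraries were CSF2ra-/- with GM-CSF, CSF2ra-/- untreated, libraries labelled Irf5-/- with GM-CSF, libraries labelled Irf5-/- untreated, wild type (WT) with IL-10 and GM-CSF, WT with GM-CSF, WT with IL-10, and WT untreated. "Untreated" means IL-5 alone, which every group received, and the dose of interleukin-10 (IL-10) is not given in the labels. CSF2ra is the chain of the receptor that binds GM-CSF itself, and IRF5 belongs to the interferon regulatory factors of innate immune cells. Separate mice or cultures for the 3 replicates are not stated in the labels, which speak of triplicates, so p-values measure the spread between these libraries. The Y-linked genes summed to 148 to 185 CPM (counts scaled for library size) in all 6 CSF2ra-/- libraries, where that spread may be technical. In every other group the Y-linked sums differed between the replicates, from 12.1 to 182 CPM over those 18 libraries. Over many genes, replicates differed by more than counting noise in all 8 groups. The mean squared difference per gene, in units of counting noise, was 34.8 to 66.3 between untreated CSF2ra-/- libraries. It was 5.38 to 42.1 between CSF2ra-/- libraries with GM-CSF and 3.49 to 40.6 in the other groups. Such a spread does not show whether mice or cultures were separate.

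Eosinophils arise from myeloid progenitors under the joint control of GATA factors, C/EBP factors and the ETS factor PU.1. GATA1 is required for the lineage in the mouse, C/EBPα commits progenitors to granulocytes, and C/EBPε acts late and switches on granule protein genes. The amount of each factor relative to the others, and of cofactors that bind them, is known to set which granulocyte or megakaryocyte program a progenitor follows. XBP1 serves the secretory load of granule synthesis, TRIB1 controls C/EBPα protein through degradation, and the ID proteins block the E proteins.

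Total counts per library ranged from 6222979 to 18709153, and 12910 to 15196 genes had at least 1 count. Levels are given as TMM-scaled CPM, and levels of different genes are compared as CPM per kb of exon. The 10 eosinophil markers summed to between 74210 and 112300 CPM per library, with the granule protein gene Prg2 at a mean of 44702 CPM and the peroxidase gene Epx at a mean of 15999 CPM over the 24 libraries. The 5 lymphocyte markers summed to at most 1.51 CPM, and the mast cell genes Mcpt4 and Tpsab1, the dendritic cell gene Xcr1 and the natural killer cell gene Ncr1 had 0 counts in every library. Csf2ra stood at 38.1, 39.8 and 38.4 CPM in CSF2ra-/- cells with GM-CSF and at 29.9, 28.5 and 38.4 CPM in untreated CSF2ra-/- cells. In the other 18 libraries Csf2ra lay between 41.8 and 83.8 CPM, so its counts were reduced in CSF2ra-/- cells and still present. Irf5 went against its label. Its level was 1394 to 1999 CPM where the label said Irf5-/- (6 libraries), against 42.5 to 94.3 CPM in WT libraries, and every direction drawn from those 6 libraries rests on that label.

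The 10 regulators spanned a wide range of levels, and their order was much the same in every group. Cebpe was the most abundant, with a mean of 441.6 CPM per kb over the 24 libraries and a range of 274.7 to 719.9 CPM per kb. Its lowest library was above the highest library of Spi1, which encodes PU.1 and averaged 126.6 CPM per kb. Xbp1 (119.0 CPM per kb) stood beside Spi1, and Spi1 was the higher of the pair in only 14 of 24 libraries. Id2 (74.9 CPM per kb) and Gata1 (74.0 CPM per kb) formed the next pair, with Id2 higher in 13 of 24 libraries. Id1 (33.8 CPM per kb) and Gata2 (33.5 CPM per kb) followed, with Id1 higher in 11 libraries. Zfpm1 (14.4 CPM per kb) lay above Trib1 (13.2 CPM per kb) in 16 libraries, and Cebpa was the lowest in all 24 libraries at a mean of 6.63 CPM per kb. Over the 24 libraries the ranges of the genes of each pair overlapped, while each pair stood apart from the next in every library. The order within a pair changed between groups. Spi1 was at 140 to 151 CPM per kb in untreated libraries labelled Irf5-/-, against 101 to 110 CPM per kb for Xbp1. In WT cells with IL-10 Spi1 was at 96.2 to 112 CPM per kb, against 115 to 125 CPM per kb for Xbp1. No test compared the genes of a pair. Cebpe was above 99.2% of the tested genes in level per kb and Gata1 above 94.7%, against 54.6% for Cebpa.

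**Figure D1:**
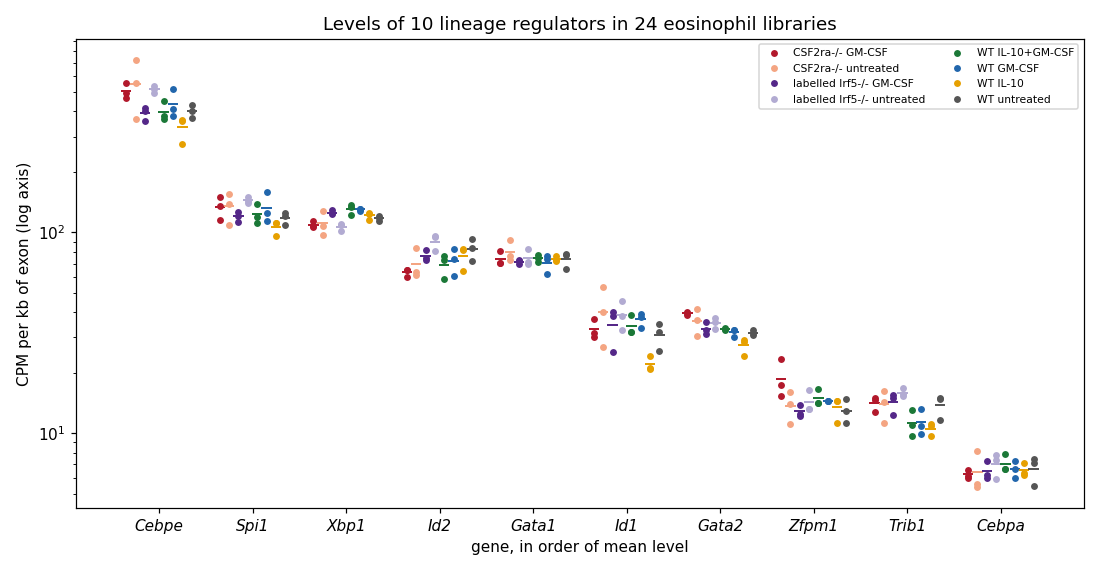
Levels of the 10 regulators, ordered by mean level, in CPM per kb of exon on a log axis. Each point is 1 library, short lines are group means, and colours mark the 8 groups. Cebpe stands alone at the top, from 274.7 to 719.9 CPM per kb, and Cebpa lies at the bottom, from 5.43 to 8.14 CPM per kb.

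Gata1 (ENSMUSG00000031162, GRCm38 chrX:7959260-7978071, minus strand) encodes the GATA factor that eosinophils need, and Gata2 (ENSMUSG00000015053, chr6:88193891-88207032, plus strand) the one that acts earlier, in progenitors and mast cells. Both genes are known to be controlled by GATA factors themselves, so the 250 bases before their RefSeq starts are shown, each in the direction of the gene, with the core GATA in capitals. The Gata1 window (GRCm38.p6, chrX:7967911-7968160, minus strand, 54.0% GC) holds 1 core, 132 bases before the start. The Gata2 windows lie before its distal start (chr6:88193641-88193890, plus strand, 67.2% GC) and its proximal start (chr6:88198414-88198663, plus strand, 74.0% GC), and neither holds the core on either strand.
Gata1: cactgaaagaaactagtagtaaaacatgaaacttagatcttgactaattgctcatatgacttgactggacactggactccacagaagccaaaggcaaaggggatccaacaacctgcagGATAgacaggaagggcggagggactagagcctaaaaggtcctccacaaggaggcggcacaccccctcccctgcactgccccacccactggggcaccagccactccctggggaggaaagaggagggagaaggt
Gata2 distal start: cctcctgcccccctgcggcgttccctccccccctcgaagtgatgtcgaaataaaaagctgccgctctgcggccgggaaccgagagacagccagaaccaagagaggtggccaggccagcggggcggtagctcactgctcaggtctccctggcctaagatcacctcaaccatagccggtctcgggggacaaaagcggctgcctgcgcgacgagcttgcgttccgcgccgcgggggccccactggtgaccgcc
Gata2 proximal start: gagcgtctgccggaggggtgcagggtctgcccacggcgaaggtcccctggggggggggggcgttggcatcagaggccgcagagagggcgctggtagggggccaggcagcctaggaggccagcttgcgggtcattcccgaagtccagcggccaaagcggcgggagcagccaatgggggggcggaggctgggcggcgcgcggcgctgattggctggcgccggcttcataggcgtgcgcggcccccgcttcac
The core GATA was found on either strand in 53.6% of the 32817 RefSeq promoter windows of this length, and the longer form AGATAA, which contains it, in 9.99% of them and in neither gene here. A match in such a window is a description and not a binding site.

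Gata1 was the more abundant GATA gene in every library. Its level per kb was 2.23 ± 0.27 times that of Gata2 (SD over 24 libraries), between 1.76 in CSF2ra-/- with GM-CSF replicate 1 and 3.00 in WT with IL-10 replicate 1. Gata1 differed little between groups, with a highest group mean 1.13 times its lowest. Its lowest library was at 151 CPM (WT with GM-CSF replicate 1), the median at 178 CPM and the highest at 223 CPM (CSF2ra-/- untreated replicate 1). Zfpm1 (ENSMUSG00000049577, chr8:122282141-122337251, plus strand) encodes FOG1, a cofactor that binds the GATA zinc finger and is known from chicken cells to oppose the eosinophil program. It stood far below Gata1, at a Gata1 over Zfpm1 ratio per kb of 5.28 ± 1.03 (SD over 24 libraries). Zfpm1 lies within the read-through gene Gm20388, with which it shares no annotated exon bases. Of the other genes of GATA complexes, Lyl1 (82.2 CPM per kb) reached the level of Gata1. The repressor Gfi1b (34.1 CPM per kb) and the adaptor Ldb1 (32.6 CPM per kb) reached that of Gata2. Lmo2 (14.5 CPM per kb) and Runx1 (14.2 CPM per kb) lay in the range of Zfpm1. Tal1 (9.67 CPM per kb) had a mean below the lowest Zfpm1 library (11.1 CPM per kb).

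Cebpe (ENSMUSG00000052435, chr14:54710360-54712174, minus strand) and Cebpa (ENSMUSG00000034957, chr7:35119293-35121928, plus strand) marked the ends of the order. The level of Cebpe per kb was 66.9 ± 13.7 times that of Cebpa (SD over 24 libraries). Between them in the same family lay Cebpb, a stress-induced granulocyte factor (59.7 CPM per kb), and Cebpg (9.05 CPM per kb), while Cebpd was lower than Cebpa at 1.35 CPM per kb. Cebpa counts were low but present throughout, from 14.3 to 21.5 CPM and never under 98 counts, and its highest group mean was 1.13 times its lowest. The gene shares 51 exonic bases with an antisense gene that is not listed in the count tables. Spi1 (ENSMUSG00000002111, chr2:91082390-91115756, plus strand) encodes PU.1, which cooperates with C/EBP factors on granulocyte genes and antagonises GATA1. Spi1 was 1.72 ± 0.23 times Gata1 per kb (SD over 24 libraries).

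Cebpe and Spi1 kept a nearly constant ratio from library to library within most groups. In WT cells with GM-CSF, Cebpe stood at 474, 642 and 510.0 CPM in replicates 1, 2 and 3, and Spi1 at 309, 426 and 336 CPM. The Cebpe over Spi1 ratio per kb in these libraries was 3.27 to 3.33. In untreated WT cells the ratio lay between 3.35 and 3.44, and in the libraries labelled Irf5-/- left untreated it lay between 3.55 and 3.60. The ratio spread more among CSF2ra-/- libraries, from 3.45 to 4.31 with GM-CSF and from 3.37 to 4.62 untreated, and in WT cells with IL-10, from 2.86 to 3.25. These ratios were noticed after the values were seen and carry no test, and the 2 genes of a ratio share the library and its depth.

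Trib1 (ENSMUSG00000032501, chr15:59648350-59657099, plus strand) encodes a pseudokinase that brings C/EBPα to the ubiquitin ligase COP1 and that is needed for normal eosinophil numbers in the mouse. It was 2.01 ± 0.42 times Cebpa per kb (SD over 24 libraries). Its relative Trib3, a stress-induced gene, was higher at 23.6 CPM per kb, Trib2 was near absent at 0.0729 CPM per kb with 104 counts in all, and Cop1 stood at 1.89 CPM per kb. Xbp1 (ENSMUSG00000020484, chr11:5520659-5525893, plus strand) encodes a transcription factor of the unfolded protein response that is required for eosinophil maturation in the mouse. It was the least variable of the 10 within groups, with 4.06% of the tested genes having a smaller within-group SD. The chaperone genes of the same response were abundant too, with Calr at 951 CPM per kb, Hsp90b1 at 431 CPM per kb and Hspa5 at 288 CPM per kb, while the sensor gene Ern1, whose product splices Xbp1 mRNA, was at 8.67 CPM per kb. Counts per gene do not separate spliced from unspliced Xbp1.

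Id1 (ENSMUSG00000042745, chr2:152736251-152737410, plus strand) and Id2 (ENSMUSG00000020644, chr12:25093799-25097140, minus strand) encode proteins without a DNA-binding domain that hold E proteins inactive. In cultured human progenitors ID1 is known to slow and ID2 to speed eosinophil differentiation. Id2 was the higher of the pair in every library, at an Id2 over Id1 ratio per kb of 2.32 ± 0.61 (SD over 24 libraries) and a range of 1.54 to 3.88. The ratio averaged 3.45 ± 0.40 in WT cells with IL-10, against 2.72 ± 0.51 in untreated WT cells (SD, n = 3 each), and the libraries of these groups overlapped. Of their relatives, Id3 stood at 1.33 CPM per kb and Id4 had 3 counts over all 24 libraries. Among the E proteins, Tcf3 stood at 14.6 CPM per kb, Tcf12 at 2.00 CPM per kb and Tcf4 at 0.239 CPM per kb.

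**Figure D2:**
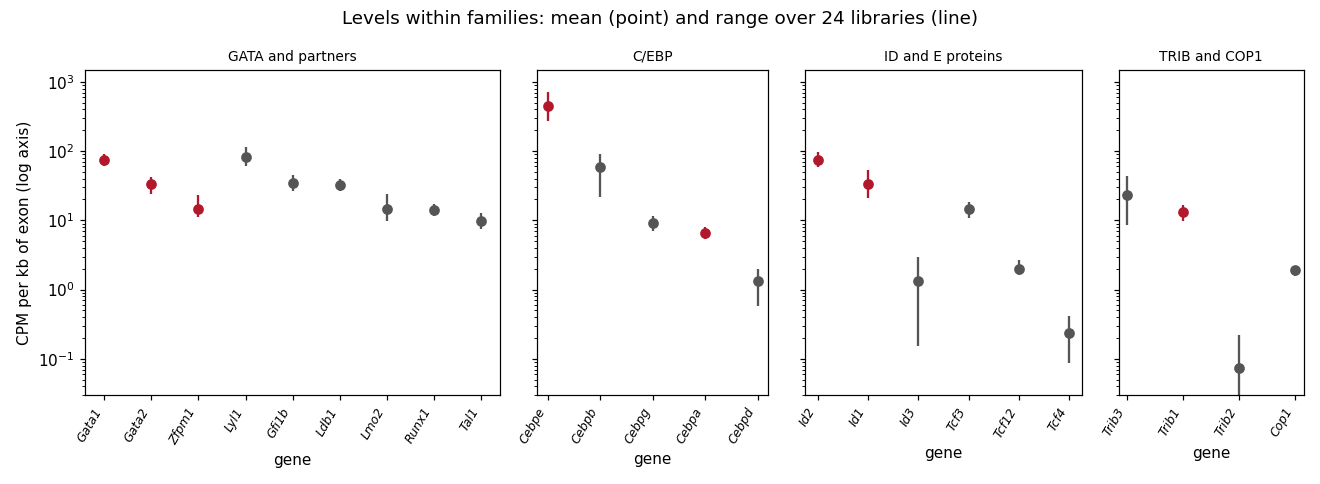
Mean level (point) and range over 24 libraries (line) in CPM per kb of exon, on a log axis, for 4 gene families, with the lineage regulators in red and their relatives in grey. A line that reaches the lower edge includes a library with 0 counts. Cebpe tops its family at 441.6 CPM per kb with Cebpb next at 59.7 CPM per kb, and Id2 and Id1 lie above Id3.

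Across the 8 groups the mean levels of each gene stayed within 2-fold. The ratio of the highest to the lowest group mean was 1.13 for Gata1 and for Cebpa, 1.23 for Xbp1, 1.36 for Spi1, 1.42 for Id2, 1.44 for Gata2, 1.45 for Zfpm1, 1.51 for Trib1, 1.64 for Cebpe and 1.82 for Id1. On the log2 scale the SD between group means exceeded the SD within groups for Gata2 (0.16 against 0.11), Xbp1 (0.12 against 0.09) and Trib1 (0.21 against 0.18), and marginally for Cebpe (0.24 against 0.23). For Gata1, Zfpm1, Cebpa, Spi1, Id1 and Id2 the spread within groups was as large or larger. A mean of 3 libraries varies less than a single library. A larger SD within groups therefore does not show that the groups were alike, and this comparison is not a test. A single library, CSF2ra-/- untreated replicate 1, was the highest of all 24 for Gata1, Gata2, Cebpa, Cebpe and Id1 and the lowest for Zfpm1 and Xbp1. It had 8637672 counts, a total lower than in every library but the one labelled Irf5-/- untreated replicate 1, and the fewest detected genes.

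**Figure D3:**
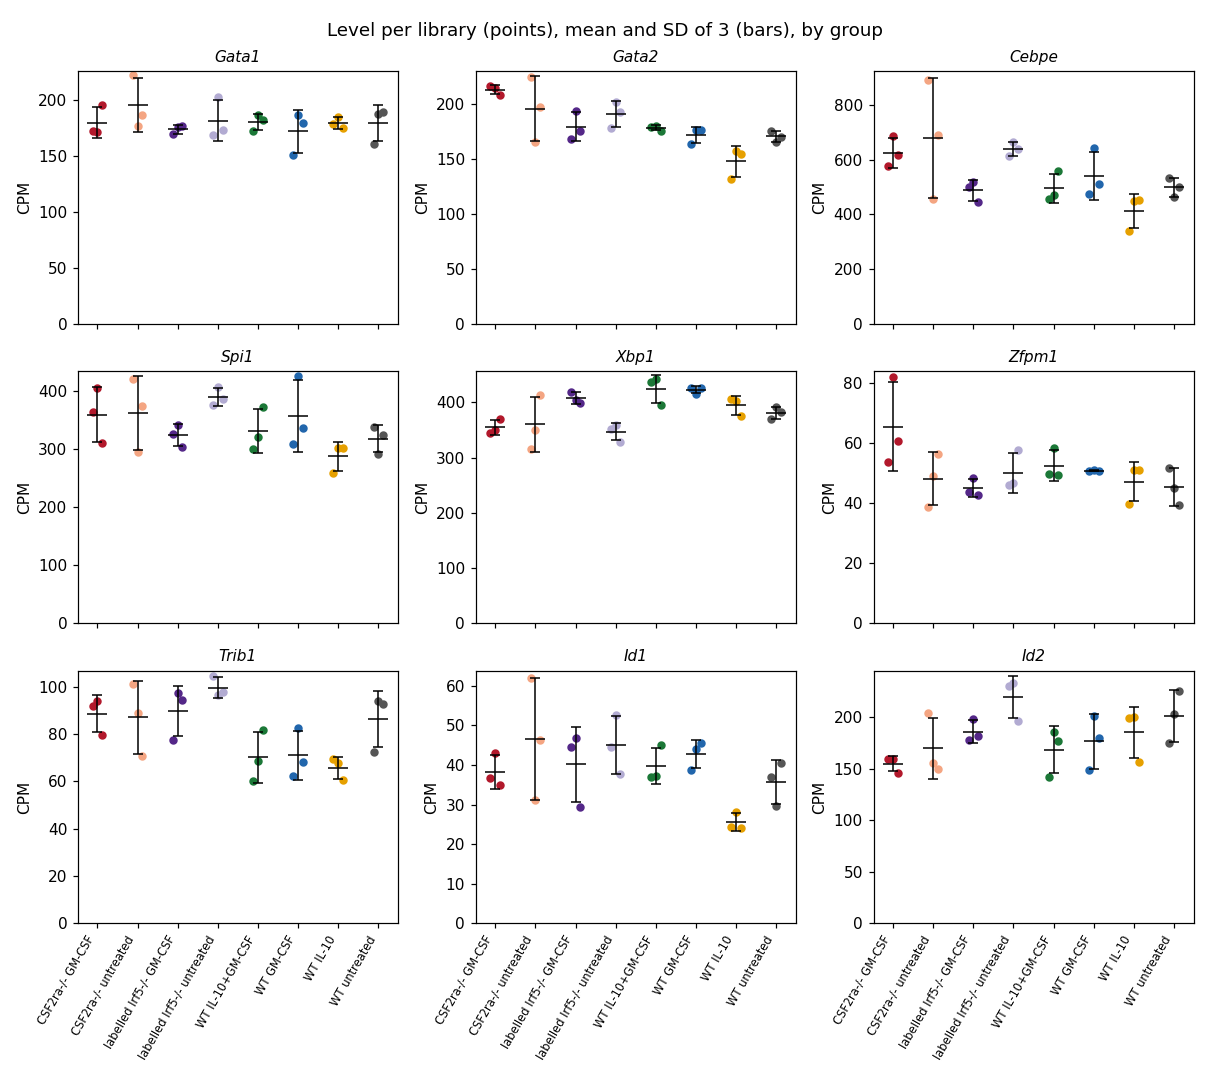
Level in CPM of 9 of the regulators, with 1 point per library and the mean and SD of 3 libraries as bars, in the 8 groups. Gata1 is nearly flat across groups, Id1 is lowest in WT cells with IL-10 (25.6 ± 2.21 CPM), and CSF2ra-/- untreated libraries spread widely for Cebpe (456 to 893 CPM).

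Differential expression was tested with edgeR's quasi-likelihood F-test in 1 model of the 8 group means, with Benjamini-Hochberg adjustment over the 11885 tested genes, and a gene was called at an adjusted p under 0.05. edgeR called 0 of the 10 regulators in each of the 13 comparisons, which were 10 differences between groups and 3 differences between GM-CSF effects. DESeq2 called 2, both in CSF2ra-/- against WT cells with GM-CSF. A missed threshold does not show that a level was the same, so 95% intervals of the log2 fold change are given below.

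No regulator passed the test with GM-CSF in WT cells. edgeR called 0 of 10 in WT cells with GM-CSF against untreated WT cells, where 0.555% of all tested genes were called, and none had an unadjusted p under 0.05 (6.27% of all tested genes did). The median log2 fold change of the 10 was 0.07, against -0.01 for all tested genes, and the 95% intervals ran from -0.57 to 0.67. Gata1 was at 151, 187 and 179.6 CPM with GM-CSF and at 161, 188 and 189.7 CPM untreated (log2 fold change -0.06 ± 0.10 SE, interval -0.27 to 0.15). Xbp1 stood at 426, 415 and 426 CPM with GM-CSF and at 370.2, 392 and 382 CPM untreated, and it was the only one of the 10 whose replicates did not overlap. Among all tested genes 12.8% had replicates that did not overlap in this comparison. The log2 fold change of Xbp1 was 0.15 ± 0.09 SE (edgeR adjusted p = 0.852). Trib1 had the smallest p of the 10 and stood at 62.1, 82.5 and 68.1 CPM with GM-CSF and at 72.5, 93.7 and 92.6 CPM untreated (-0.28 ± 0.14 SE, edgeR adjusted p = 0.811). The Trib1 groups overlapped by 1 untreated library. In the lists around the regulators 1 of 28 other C/EBP and granulocyte factors rose (0.412% of all tested genes did, and 0.143% fell), Irf4, a factor of dendritic cells and lymphocytes (1.62 ± 0.34 SE, edgeR adjusted p = 0.0235). It lost that call without untreated replicate 2 or 3 or without GM-CSF replicate 1 or 3 (edgeR adjusted p up to 0.208). Of 13 tested GATA complex partners, 8 E protein and ID genes, 14 SMAD signalling genes, 22 unfolded protein response genes and 5 genes of the TRIB list, edgeR called 0.

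With IL-10 present, edgeR again called 0 of the 10 for GM-CSF, with 0.858% of all tested genes called. Id1 came closest, at 37.0, 37.2 and 44.97 CPM in WT cells with IL-10 and GM-CSF and at 24.4, 28.1 and 24.2 CPM in WT cells with IL-10. All 3 libraries with both cytokines were above all 3 with IL-10 alone, and the log2 fold change was 0.64 ± 0.20 SE (interval 0.22 to 1.05, edgeR adjusted p = 0.201). With only these 2 groups in the fit Id1 was called (0.65 ± 0.11 SE, edgeR adjusted p = 0.0318). Gata2 was at 179, 180.5 and 176 CPM with both cytokines and at 132, 157 and 154 CPM with IL-10 (0.27 ± 0.10 SE, edgeR adjusted p = 0.304). Cebpe was at 458, 470.0 and 557 CPM with both cytokines and at 341, 447 and 452 CPM with IL-10 (0.26 ± 0.17 SE, edgeR adjusted p = 0.679). The replicates of Id1, Gata2 and Cebpe did not overlap, 3 of 10 genes, against 17.3% of all tested genes. At an unadjusted p under 0.05 stood Id1 and Gata2, 2 of 10 genes, against 9.63% of all tested genes, and the intervals of the 10 ran from -0.42 to 1.05. Of the 28 other C/EBP and granulocyte factors 2 rose, where 0.724% of all tested genes rose and 0.135% fell. The 2 that rose were Irf4 (1.66 ± 0.34 SE) and Batf3 (1.91 ± 0.36 SE), a dendritic cell factor. Each of these calls was lost without at least 1 library (edgeR adjusted p up to 0.143 for Irf4, and 0.0565 for Batf3 without IL-10 replicate 2). Of the 14 SMAD signalling genes 1 rose, Tgfb1 (0.50 ± 0.11 SE, up to an edgeR adjusted p of 0.323 with a library left out).

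IL-10 alone was the condition in which several regulators were at their lowest. Gata2, Cebpe, Spi1, Trib1 and Id1 all had their lowest group mean in WT cells with IL-10, and edgeR called 0 of the 10 against untreated WT cells, with 0.0505% of all tested genes called. Id1 was at 24.4, 28.1 and 24.2 CPM with IL-10 and at 37.0, 29.6 and 40.5 CPM untreated. Every IL-10 library was below every untreated one (-0.48 ± 0.20 SE, interval -0.90 to -0.07, edgeR adjusted p = 0.998). Trib1 was at 69.3, 67.6 and 60.5 CPM with IL-10 and at 72.5, 93.7 and 92.6 CPM untreated (-0.39 ± 0.14 SE, edgeR adjusted p = 0.803). Gata2 was at 132, 157 and 154 CPM with IL-10 and at 175, 166 and 170.4 CPM untreated (-0.21 ± 0.10 SE, edgeR adjusted p = 0.999). For Id1, Trib1, Gata2 and Cebpe the replicates did not overlap, 4 of 10 genes, against 15.1% of all tested genes, and Id1, Trib1 and Gata2 had an unadjusted p under 0.05, 3 of 10 genes, against 4.54% of all tested genes. Gata1 stood at 178, 185 and 175 CPM with IL-10, inside the untreated range of 161 to 189.7 CPM (0.00 ± 0.10 SE, interval -0.21 to 0.21). IL-10 on top of GM-CSF gave 0 of 10 called by edgeR, 0 with an unadjusted p under 0.05 and 0 without overlap, against 0.0505% of all tested genes called and 6.61% without overlap. The intervals there ran from -0.51 to 0.40. In neither IL-10 comparison did edgeR call a member of the lists of GATA complex partners, other C/EBP and granulocyte factors, E protein and ID genes, SMAD signalling, the unfolded protein response or TRIB genes. The difference between the GM-CSF effect with IL-10 and the effect without it was called for 0 of the 10 and for 0% of all tested genes by edgeR, with 149 genes at an unadjusted p under 0.05, and DESeq2 called 1 gene, none of the 10.

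**Figure D4:**
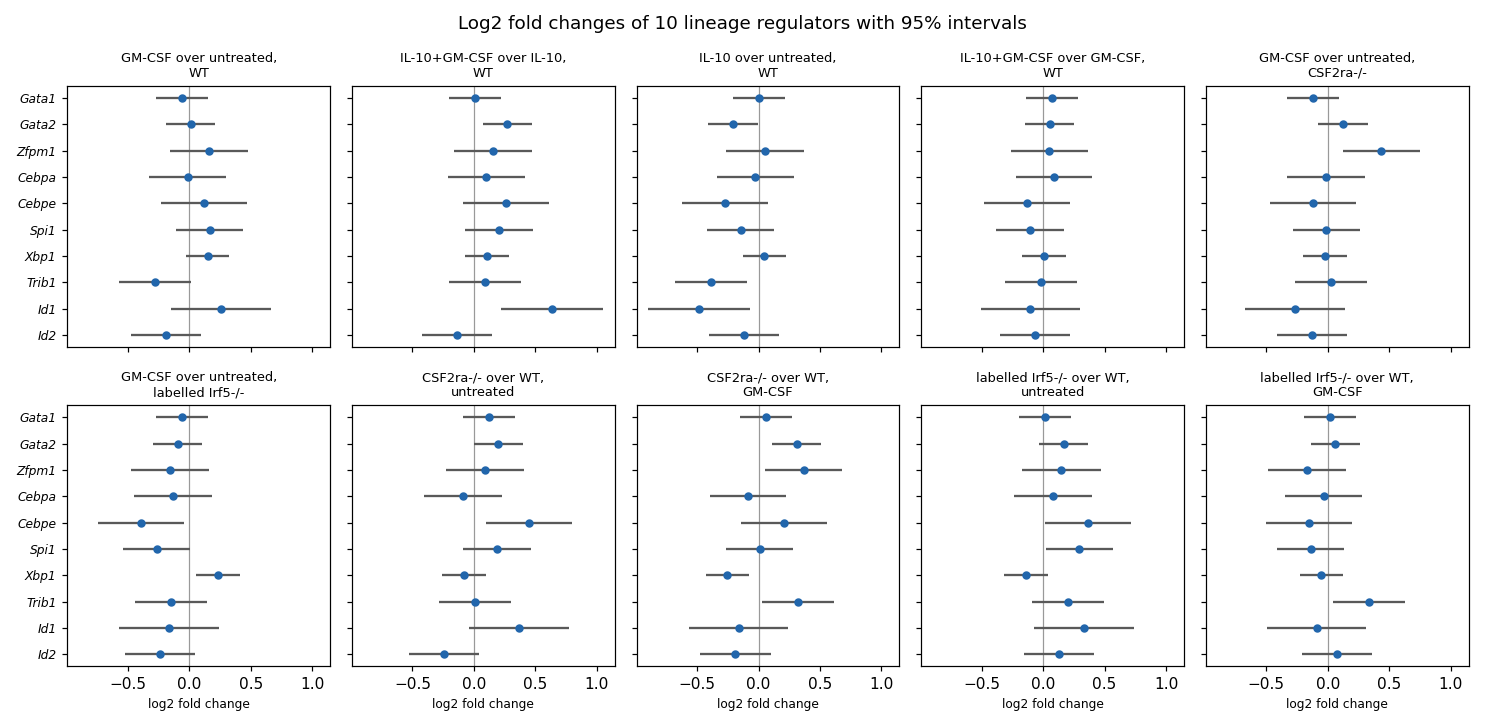
Log2 fold change (point) and 95% interval (line) of the 10 regulators in the 10 differences between groups, from the edgeR fit. Some intervals miss 0, at most 4 of 10 in a panel (CSF2ra-/- over WT with GM-CSF). They include Id1 in IL-10+GM-CSF over IL-10 (0.22 to 1.05) and Gata2 in CSF2ra-/- over WT with GM-CSF (0.11 to 0.51). None of the 10 passed the adjusted threshold.

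The CSF2ra-/- groups address what GM-CSF and its receptor chain contribute to the levels of the lineage factors. With GM-CSF against untreated, edgeR called 0 of the 10 in CSF2ra-/- cells, where 0% of all tested genes were called and 531 of them, 4.47%, had an unadjusted p under 0.05. Zfpm1 was the only one of the 10 below that level, at 53.7, 81.9 and 60.7 CPM with GM-CSF and at 38.9, 48.9 and 56.4 CPM untreated. The groups overlapped, and in this comparison 3.92% of all tested genes had replicates without overlap. The log2 fold change was 0.44 ± 0.15 SE (edgeR adjusted p = 0.999). The difference of the GM-CSF effect between CSF2ra-/- and WT cells was called for 0 of the 10 by edgeR, with 0.0589% of all tested genes called, and its intervals ran from -1.10 to 0.72, wide enough to hold a difference of 2-fold for Id1.

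CSF2ra-/- cells with GM-CSF differed from WT cells with GM-CSF in 3.79% of all tested genes, and edgeR called 0 of the 10. Gata2 came closest. It was at 216, 215 and 209 CPM in CSF2ra-/- cells and at 163, 176 and 176 CPM in WT cells, so that the lowest CSF2ra-/- library was above the highest WT library (0.31 ± 0.10 SE, interval 0.11 to 0.51, edgeR adjusted p = 0.0814). DESeq2 called it (0.31 ± 0.09 SE, DESeq2 adjusted p = 0.0257). Xbp1 was at 344, 349.9 and 370.1 CPM in CSF2ra-/- cells and at 426, 415 and 426 CPM in WT cells, again without overlap (-0.25 ± 0.09 SE, edgeR adjusted p = 0.124), and DESeq2 called it as well (DESeq2 adjusted p = 0.0326). Zfpm1 was at 53.7, 81.9 and 60.7 CPM in CSF2ra-/- cells and at 50.6, 50.9 and 50.7 CPM in WT cells (0.37 ± 0.15 SE, edgeR adjusted p = 0.241). Non-overlap thus held for 3 of 10 genes, against 18.1% of all tested genes, and 4 of 10 had an unadjusted p under 0.05, against 14.3% of all tested genes, the last being Trib1 (0.32 ± 0.14 SE, edgeR adjusted p = 0.289). Gata1 overlapped between the groups, at 172, 172 and 196 CPM in CSF2ra-/- cells and at 151, 187 and 179.6 CPM in WT cells, and the Gata1 over Gata2 ratio per kb averaged 1.87 ± 0.18 in CSF2ra-/- cells and 2.22 ± 0.16 in WT cells (SD, n = 3 each). Neutrophil markers summed to 1221 to 1280 CPM in CSF2ra-/- libraries with GM-CSF and 1605 to 1898 CPM in WT libraries with GM-CSF. In the same order, erythroid and megakaryocyte markers summed to 1452 to 1599 against 1057 to 1319 CPM. Basophil and mast cell markers summed to 665 to 810 against 497 to 662 CPM, and eosinophil markers to 80530 to 83970 against 74210 to 78120 CPM. The other cell type lists overlapped. Their part in the result was not tested. Because these are bulk libraries, a change in the share of a cell type and a change in RNA per cell cannot be told apart.

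In untreated cells, where CSF2ra-/- and WT differed in 10.8% of all tested genes, edgeR also called 0 of the 10 regulators, and none was without overlap, against 21.2% of all tested genes. Only Cebpe had an unadjusted p under 0.05, 1 of 10 genes, against 27.9% of all tested genes. Cebpe was at 893, 456 and 689 CPM in CSF2ra-/- cells and at 533, 463 and 499.6 CPM in WT cells (0.45 ± 0.17 SE, interval 0.10 to 0.80, edgeR adjusted p = 0.0882). The spread among CSF2ra-/- libraries was large, from below every WT library to above every WT library. Id1 was at 61.9, 31.1 and 46.4 CPM in CSF2ra-/- cells and at 37.0, 29.6 and 40.5 CPM in WT cells, with the same order of CSF2ra-/- libraries (0.37 ± 0.20 SE, edgeR adjusted p = 0.227). Gata2 was at 225, 165 and 197 CPM in CSF2ra-/- cells and at 175, 166 and 170.4 CPM in WT cells (0.20 ± 0.10 SE, edgeR adjusted p = 0.184). Of the untreated CSF2ra-/- libraries, replicate 2 was the lowest for all 3 genes. Without that library edgeR called Cebpe (0.67 ± 0.14 SE, adjusted p = 0.00387), Gata2 (0.31 ± 0.09 SE, adjusted p = 0.0197) and Id1 (0.60 ± 0.18 SE, adjusted p = 0.0244), and 2620 of all tested genes, against 1288 with it. Without CSF2ra-/- replicate 1, the highest for all 3 genes, edgeR called 0 of the 10 (Cebpe 0.20 ± 0.16 SE, adjusted p = 0.551) and 359 of all tested genes. Without any other single library of these groups it also called 0 of the 10, and over all settings tried the adjusted p reached 0.668 for Gata2 and 0.809 for Id1. The Y-linked genes summed to 167 to 176 CPM in untreated CSF2ra-/- libraries and to 52.7 to 173 CPM in untreated WT libraries. With that sum as a covariate 0 of the 10 were called in either treatment.

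Of 28 other C/EBP and granulocyte factors 7 fell and 1 rose in untreated cells, with a median log2 fold change of -0.29 against 0.00 for all tested genes, of which 5.52% rose and 5.32% fell. With each library left out in turn between 2 and 7 of the 28 fell. Bcl6, a transcriptional repressor, was at 4.19, 5.18 and 6.39 CPM in CSF2ra-/- cells and at 9.54, 10.3 and 9.05 CPM in WT cells, and fell by 0.85 ± 0.17 SE on the log2 scale (edgeR adjusted p = 0.00463). Maf fell by 0.84 ± 0.21 SE and Klf4, a monocyte factor, by 2.18 ± 0.57 SE. The call of Bcl6 held with each of the 6 libraries left out in turn, and the calls of Maf and Klf4 were lost without WT untreated replicate 2 or 3 (edgeR adjusted p up to 0.0642 and 0.0553). The 1 that rose, named after its value was seen, was the progenitor factor Myb (0.42 ± 0.12 SE, edgeR adjusted p = 0.0341), a call lost without CSF2ra-/- replicate 1 or WT replicate 2 or 3 (edgeR adjusted p up to 0.178). Monocyte and macrophage markers fell in the same comparison, 5 of 9 tested, with a median log2 fold change of -1.89, and 2 to 5 fell with a library left out. The summed level of these markers was 2029 to 2628 CPM in CSF2ra-/- libraries and 2284 to 2427 CPM in WT libraries. Of 10 neutrophil markers 3 fell and 0 rose (1 to 3 fell with a library left out), with sums of 1274 to 1570 CPM in CSF2ra-/- libraries and 1595 to 1891 CPM in WT libraries. The part of both marker lists in the result was not tested.

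With GM-CSF 3 of the 28 factors fell and 0 rose in CSF2ra-/- against WT cells, where 0.909% of all tested genes rose and 2.89% fell (1 to 3 fell with a library left out). Irf4 was at 2.22, 1.05 and 2.73 CPM in CSF2ra-/- cells and at 21.6, 11.6 and 19.9 CPM in WT cells, a fall by 3.13 ± 0.38 SE on the log2 scale (edgeR adjusted p = 1.81e-05) that held with each of the 6 libraries left out in turn. Batf3 fell by 1.52 ± 0.36 SE and Cebpg by 0.42 ± 0.11 SE, and both calls were lost without single libraries of either genotype (edgeR adjusted p up to 0.0677 and 0.167). Of the 5 C/EBP genes set out above, edgeR called Cebpg alone in the comparisons of CSF2ra-/- with WT cells when all 24 libraries were fitted.

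Among 13 tested GATA complex partners 1 rose in untreated CSF2ra-/- cells, where 5.52% of all tested genes rose, and another with GM-CSF, where 0.909% rose. Tal1, which binds DNA beside GATA factors, was at 53.2, 55.1 and 43.8 CPM in untreated CSF2ra-/- cells and at 36.9, 34.4 and 32.7 CPM in untreated WT cells (0.55 ± 0.13 SE, edgeR adjusted p = 0.0143). Erg, an ETS factor of progenitors, was at 27.0, 28.5 and 22.6 CPM in CSF2ra-/- cells with GM-CSF and at 19.6, 17.5 and 16.1 CPM in WT cells with GM-CSF (0.55 ± 0.13 SE, edgeR adjusted p = 0.0196). No library overlapped between the groups for either gene. The call of Tal1 was lost without CSF2ra-/- untreated replicate 1 or WT untreated replicate 2 or 3 (edgeR adjusted p up to 0.0704). That of Erg was lost without replicate 1 or 2 of CSF2ra-/- or replicate 2 or 3 of WT with GM-CSF (edgeR adjusted p up to 0.124). Of 7 tested erythroid and megakaryocyte markers 3 rose and 1 fell in untreated cells, with 1 to 4 that rose and 0 or 1 that fell when a library was left out. The list summed to 1392 to 1686 CPM in CSF2ra-/- libraries and to 1048 to 1140 CPM in WT libraries. Of 7 tested basophil and mast cell markers 2 rose and 0 fell there (0 to 2 rose with a library left out, and 0 without the 3 libraries set aside after seeing the data), with sums of 691 to 912 CPM in CSF2ra-/- libraries and 498 to 639 CPM in WT libraries. Their part in the result was not tested.

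Of 8 tested E protein and ID genes 2 fell and 1 rose (Tal1) in untreated CSF2ra-/- cells. Among all tested genes 5.32% fell and 5.52% rose. With GM-CSF 2 of the 8 fell and 0 rose, against 2.89% and 0.909% of all tested genes. When a library was left out 0 to 4 fell untreated and 0 to 2 with GM-CSF. The median log2 fold change was -0.51 untreated and -0.26 with GM-CSF. Id3, the relative of Id1 and Id2 at a low level, passed the test in CSF2ra-/- cells. It was at 0.370, 0.295 and 0.887 CPM in untreated CSF2ra-/- cells and at 3.79, 3.19 and 5.23 CPM in untreated WT cells, a fall by 2.89 ± 0.68 SE on the log2 scale (edgeR adjusted p = 0.0116). With GM-CSF it was at 0.270, 0.602 and 0.517 CPM in CSF2ra-/- cells and at 3.09, 0.603 and 4.99 CPM in WT cells, a fall by 2.64 ± 0.70 SE (edgeR adjusted p = 0.0342). The E protein gene Tcf4 fell in both, by 1.00 ± 0.27 SE untreated and by 1.09 ± 0.27 SE with GM-CSF. Both genes are expressed at low levels, and their calls were lost without single libraries, for Id3 in untreated cells without CSF2ra-/- replicate 1 (edgeR adjusted p = 0.0568). With GM-CSF the call of Id3 was lost without any library but WT replicate 2 (edgeR adjusted p up to 0.232), and the calls of Tcf4 reached 0.0952 untreated and 0.165 with GM-CSF. In the SMAD pathway, which drives ID genes in many cells, 5 of 14 tested genes fell and 0 rose in untreated cells (median -0.30), where 5.32% of all tested genes fell and 5.52% rose. Between 1 and 6 of the 14 fell with a library left out. Among the 5 was Smad3. It was at 15.4, 18.9 and 17.2 CPM in CSF2ra-/- cells and at 23.2, 34.9 and 33.1 CPM in WT cells, a fall by 0.81 ± 0.17 SE (edgeR adjusted p = 0.00562) that held with each of the 6 libraries left out in turn. The receptor gene Tgfbr2 fell by 0.47 ± 0.12 SE, Bmpr2 by 0.64 ± 0.17 SE and Smad4, the shared SMAD, by 0.37 ± 0.10 SE, and each of these calls was lost without CSF2ra-/- untreated replicate 1 or WT untreated replicate 2 (edgeR adjusted p up to 0.128, 0.151 and 0.147). With GM-CSF 1 of the 14 SMAD genes fell and 0 rose, against 2.89% and 0.909% of all tested genes. It was Acvr1 (edgeR adjusted p = 0.0163, and up to 0.0968 with a library left out).

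Of 22 genes of the unfolded protein response 4 rose and 0 fell in untreated CSF2ra-/- cells, against 5.52% of all tested genes that rose and 5.32% that fell, and 1 to 7 rose with a library left out. Xbp1 itself was at 316, 350.3 and 414 CPM in CSF2ra-/- cells and at 370.2, 392 and 382 CPM in WT cells (-0.08 ± 0.09 SE, edgeR adjusted p = 0.565). Calr, the chaperone calreticulin, was at 3956, 3542 and 3105 CPM in CSF2ra-/- cells and at 2651, 1935 and 2061 CPM in WT cells, and rose by 0.67 ± 0.13 SE on the log2 scale (edgeR adjusted p = 0.00286), with each of the 6 libraries left out in turn as well. Sdf2l1 (0.68 ± 0.15 SE), Creld2 (0.52 ± 0.13 SE) and Dnajb11 (0.40 ± 0.13 SE) rose and lost their calls without CSF2ra-/- replicate 1 or WT replicate 2 (edgeR adjusted p up to 0.0591, 0.106 and 0.297). With GM-CSF 0 of 22 rose and 1 fell, against 0.909% and 2.89% of all tested genes, Dnajb9 (by 0.44 ± 0.11 SE, edgeR adjusted p = 0.0183, and up to 0.142 with a library left out). The median log2 fold change of the list was 0.01 untreated and -0.02 with GM-CSF. Of the 10 eosinophil markers Epx (0.34 ± 0.10 SE) and Prg3 (0.46 ± 0.13 SE) rose and Alox15 (-0.61 ± 0.12 SE) and Ccr3 (-0.71 ± 0.18 SE) fell in untreated CSF2ra-/- cells. Epx and Prg3 encode granule proteins, Alox15 a lipid-oxidising enzyme and Ccr3 the eotaxin receptor. Of these untreated calls that of Alox15 held with each library left out in turn, while those of Epx, Prg3 and Ccr3 did not (edgeR adjusted p up to 0.109, 0.225 and 0.105). With GM-CSF 1 of the 10 eosinophil markers rose and 0 fell, against 0.909% and 2.89% of all tested genes. It was Epx (edgeR adjusted p = 0.00476), and that call held with each library left out in turn (up to 0.0409). In the TRIB list 0 of 5 were called by edgeR in either treatment, with a median log2 fold change of -0.24 untreated and -0.09 with GM-CSF.

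**Figure D5:**
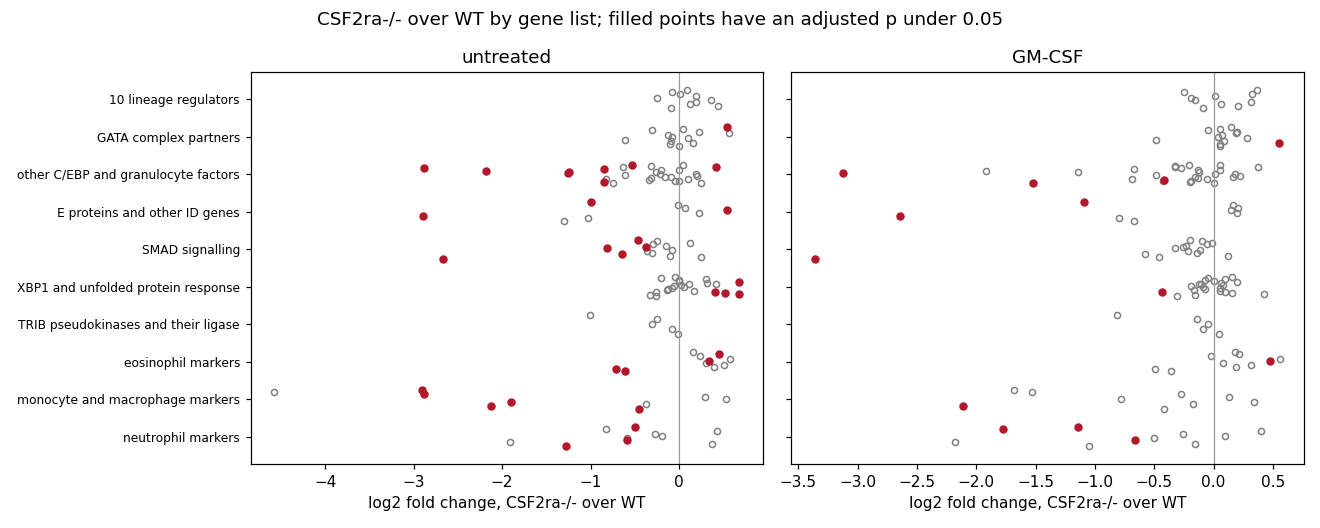
Log2 fold change of CSF2ra-/- over WT for each tested gene (point) of the 10 regulators and of 9 gene lists, in untreated cells (left) and with GM-CSF (right), with genes called by edgeR filled. None of the 10 regulators is filled, while 7 of 28 other C/EBP and granulocyte factors lie to the left and are filled in untreated cells.

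In the libraries labelled Irf5-/-, whose Irf5 counts go against the label, edgeR called 0 of the 10 with GM-CSF against untreated, where 0.353% of all tested genes were called. Cebpe was at 501, 519 and 445 CPM with GM-CSF and at 615, 667 and 640.6 CPM untreated (-0.39 ± 0.17 SE, interval -0.74 to -0.04, edgeR adjusted p = 0.776). Xbp1 had the opposite sign, at 419.5, 404 and 399.3 CPM with GM-CSF and at 352, 358 and 329 CPM untreated (0.23 ± 0.09 SE, edgeR adjusted p = 0.567). Spi1 was at 327, 341 and 304 CPM with GM-CSF and at 376, 406 and 386 CPM untreated (-0.27 ± 0.13 SE, edgeR adjusted p = 0.879). The replicates of these 3 genes did not overlap, against 15.9% of all tested genes, and Cebpe and Xbp1 had an unadjusted p under 0.05, against 5.82% of all tested genes. Of the 28 other C/EBP and granulocyte factors 1 rose, Irf4 (1.77 ± 0.36 SE, edgeR adjusted p = 0.0245, and up to 0.224 with a library left out). The difference of the GM-CSF effect between the libraries labelled Irf5-/- and WT cells was called for 0 of the 10 and 0% of all tested genes by edgeR, with 375 genes at an unadjusted p under 0.05. It was -0.43 ± 0.19 SE for Spi1 and -0.51 ± 0.24 SE for Cebpe, both with an edgeR adjusted p of 0.987, and DESeq2 called 1 gene, none of the 10.

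Against untreated WT cells, the untreated libraries labelled Irf5-/- had 0 of the 10 called by edgeR and 0.0337% of all tested genes called. Cebpe was at 615, 667 and 640.6 CPM in libraries labelled Irf5-/- and at 533, 463 and 499.6 CPM in WT libraries (0.36 ± 0.17 SE, edgeR adjusted p = 0.344), and with only these 2 groups in the fit it was called (0.37 ± 0.09 SE, edgeR adjusted p = 0.0327). Spi1 was at 376, 406 and 386 CPM in libraries labelled Irf5-/- and at 338, 292 and 324 CPM in WT libraries (0.29 ± 0.13 SE, edgeR adjusted p = 0.337). Replicates did not overlap for 5 of the 10 (Gata2, Cebpe, Spi1, Trib1 and Xbp1), against 26% of all tested genes, and the median log2 fold change of the 10 was 0.16 against -0.01 for all tested genes. Cebpe and Spi1 had an unadjusted p under 0.05, 2 of 10 genes, against 14% of all tested genes. With GM-CSF 0 of the 10 were called by edgeR against 0.0337% of all tested genes, 1 did not overlap (Zfpm1) against 6.65%, and 1 had an unadjusted p under 0.05 against 1.46% (Trib1, 0.34 ± 0.14 SE, edgeR adjusted p = 1). Several comparisons share libraries, such as the untreated WT group, so their values stand side by side and are not repeats of each other.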

How the data were processed

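The authors deposited 1 table of read counts per gene for each of 24 libraries. Libraries were stranded mRNA, per the labels' protocols, and per the submitters' processing notes STAR aligned the reads to GRCm38.p6 and featureCounts assigned them to genes. Tool versions, how strand was counted and what became of reads matching more than 1 gene: not given in the sources used here. All deposited values were whole counts, 34 of 25746 genes had no symbol (0.0189% of counts), and no libraries were identical. Symbols, coordinates and exon lengths came from GENCODE M21 on GRCm38, and promoter windows from RefSeq (6 of the 10 genes matched).

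Groups came from the genotype and treatment labels, and replicate numbers only name libraries. Counts were scaled by TMM in edgeR 4.0.16 (R 4.3.3; factors 0.939 to 1.031), and filterByExpr kept 11885 genes. All 24 libraries entered a robust quasi-likelihood model with 8 group means (common biological coefficient of variation 14.1%), with 13 contrasts and a Benjamini-Hochberg adjusted p threshold of 0.05. Errors (SE) are those implied by the F-test, and 95% intervals use its degrees of freedom. The test was checked on simulated counts in 1 contrast, GM-CSF in WT, with log2 changes of 1 and 2 in size. Smaller changes, such as those estimated for the 10 genes, were not simulated, so that check does not cover them. Alternatives were DESeq2 1.42.0, relative log expression factors, 2 other filters, only the groups compared, the level of 4 Y-linked genes as covariate, each library left out, and, added after seeing the data, leaving out the 2 libraries with the lowest totals and the 1 with the most detected genes. The 10 genes and the lists around them were chosen with earlier results of these data known. By the rule for named genes, all 10 are described, and each list gives its counts and at most 4 called genes by smallest adjusted p. Family relatives are given for their level. For 1 gene of the lists no value of its own is reported here.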

Additional observations from a re-analysis of the deposited data

Results flagged for a closer look

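The effect of GM-CSF on Cebpe had opposite directions in 2 settings. In the libraries labelled Irf5-/-, Cebpe was at 501, 519 and 445 CPM with GM-CSF and at 615, 667 and 640.6 CPM untreated. In WT cells given IL-10, it was at 458, 470.0 and 557 CPM with IL-10 and GM-CSF and at 341, 447 and 452 CPM with IL-10. The replicates of the groups did not overlap in either setting, and the directions were opposite. The pattern came from a search of the 10 genes for opposite GM-CSF effects without overlap. Taken singly, 15.9% of all tested genes did not overlap in the first setting and 17.3% in the second. The share of all tested genes with opposite directions was not computed. The effect in the libraries labelled Irf5-/- minus the effect in WT cells with IL-10 was -0.66 in mean log2 CPM. This difference was not tested, neither effect passed edgeR's adjusted threshold, and the 6 libraries labelled Irf5-/- carry high Irf5 counts.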

How the results depend on the processing

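The number of regulators called was recomputed 187 times over the 13 comparisons and stayed at 0 in 182. It was 1 with only the groups compared for GM-CSF in WT with IL-10 (Id1) and for untreated libraries labelled Irf5-/- against WT (Cebpe). For CSF2ra-/- against WT with GM-CSF it was 2 with DESeq2 (Gata2 and Xbp1) and 1 without the 3 libraries set aside after seeing the data (Gata2, 0.32 ± 0.09 SE, edgeR adjusted p = 0.037). Leaving out each library in turn gave 0 to 3 for CSF2ra-/- against WT untreated and 0 elsewhere. The cause was not tested. The 18 named effects were those with an unadjusted p under 0.05 in the full edgeR fit, so few changes of sign could occur among them. Of 246 recomputed values of these 18 effects 0 changed sign and 6 were called. Of 1870 comparisons of sign over all 10 genes 128 changed, with a log2 fold change of at most 0.237 in size.

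Counts over all genes depended more on single libraries. With each library left out in turn they ran from 291 to 2620 (1288 in the full fit) for CSF2ra-/- against WT untreated, from 222 to 436 (451) with GM-CSF, from 31 to 61 (66) for GM-CSF in WT, from 44 to 100 (102) with IL-10, from 11 to 41 (42) for GM-CSF in libraries labelled Irf5-/-, from 0 to 7 (6) for IL-10, from 0 to 6 (6) for IL-10 with GM-CSF, from 1 to 8 and 2 to 5 (4 each) for libraries labelled Irf5-/- against WT untreated and with GM-CSF, from 4 to 12 (7) for the difference of GM-CSF effects between CSF2ra-/- and WT, and from 0 to 29 (0) for GM-CSF in CSF2ra-/-. With only the groups compared, CSF2ra-/- against WT gave 199 in each treatment, untreated libraries labelled Irf5-/- against WT 562 and with GM-CSF 2, IL-10 gave 44 alone and 0 with GM-CSF, and the CSF2ra-/- difference 3. DESeq2 gave 154 for GM-CSF with IL-10, 68 in libraries labelled Irf5-/-, 30 for IL-10 and 20 with GM-CSF, 23 and 7 for libraries labelled Irf5-/- against WT, 13 for the CSF2ra-/- difference and 1 for each other difference. The Y-linked covariate gave 756 for CSF2ra-/- against WT untreated and 3 for IL-10 with GM-CSF, and no filter gave 9 for untreated libraries labelled Irf5-/- against WT. Without the 3 libraries the counts were 388 for CSF2ra-/- against WT untreated, 19 for GM-CSF in libraries labelled Irf5-/-, 2 for these against WT untreated and 4 for the CSF2ra-/- difference. No paired analysis was possible because the labels give no replicate numbers shared between groups. With 3 libraries a group the 95% intervals stayed wide, most of all for Id1 (log2 fold change of -0.90 to -0.07 with IL-10), which limits what could be detected.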
